A study of Mus musculus with 2 samples.

Results

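The cells described here are the myeloid-low cells of the pool labelled FACS BFU-E: 156 of its 233 cells, out of 3357 cells in the series. They were chosen by name and by measured values. A cell of the pool was kept when it held fewer than 5 unique molecular identifiers (UMIs, each standing for 1 captured transcript) of Mpo, which encodes the neutrophil enzyme myeloperoxidase, and fewer than 3 UMIs of Ly86, Csf1r and Ccr2 together, which encode surface proteins of monocytes and macrophages. BFU-E stands for burst-forming unit-erythroid, among the earliest progenitors bound for the red cell lineage; the CFU-E, or colony-forming unit-erythroid, comes after it. The gene of a stem cell factor receptor (Kit) and the factors Gata2 and Myb are typical of early progenitors. Maturing cells turn to the factors Gata1 and Klf1, to the transferrin receptor Tfrc, to heme and in the end to globin.

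All groups came from E14.5 livers of C57BL/6 embryos, were low in CD71 (the Tfrc product) and CD24 (the Cd24a product) per the labels, and were read with 10x 3' version 3 chemistry. The set-beside groups were the PE-low pool under the same limits (156 of 208 cells), the CS BFUE pool of a second, CITE-seq library (87 of 122), the 77 FACS BFU-E cells outside the limits, and the FACS CFU-E pool (167 of 167). The labels speak of FACS (fluorescence-activated cell sorting) and magnet isolation. No source used here says what PE and CS stand for, what each pool's gate was, how cells were named or how many embryos were pooled. Growth for 10 days with 100 uM dexamethasone or methanol is described too; whether any sequenced cell went through it is not given, so a shared treatment cannot be told apart from the groups.

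Pools of the hashed library were told apart by an antibody-linked barcode of 15 bases, which the labels give. They are shown because they define the FACS BFU-E pool and those it was read beside; capitals mark the whole barcode.
FACS BFU-E: AACCTTTGCCACTGC
PE-low: CAGGTTGTTGTCATT
FACS CFU-E: GTCCGACTAATAGCT

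The myeloid-low FACS BFU-E cells held 5174112 UMIs, with 12408 to 49894 per cell (median 34069). Medians were 35776.5 in PE-low, 24160 in CS BFUE, 27208 in the FACS BFU-E cells outside the limits and 38377 in FACS CFU-E. Levels are CPM, counts per 1000000 of the UMIs summed over the cells of a group, and a bracketed range after a ratio is its 95% exact conditional binomial interval. These intervals cover counting error only: each group is 1 sample and cells are not replicates, so no difference has a replicate check and no test was run. The libraries shared 0 cell barcodes.

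No FACS BFU-E cell had 4 or 5 Mpo UMIs. Among the kept cells, 129 had 0 Mpo UMIs, 24 had 1, and 3 had more, with 3 UMIs as the highest count. The removed cells at or over the Mpo limit had 6 to 275 UMIs (median 45), and 12 of them had 14 or fewer. Of Ly86, Csf1r and Ccr2, only 2 kept cells held any, with 1 UMI each, against 3 removed cells with 3 or 4. At this second limit the counts of the pool ran on without a break, with 12, 8, 2 and 1 cells at 1, 2, 3 and 4 UMIs. These values chose the cells and are not a finding.

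The 6 marker genes given for the cells were all present. Kit had 103 CPM in myeloid-low FACS BFU-E cells, against 42.5 CPM in FACS CFU-E, and a UMI in 91.7% of cells against 70.1%. Myb, a factor of immature blood progenitors, had 408 CPM in myeloid-low FACS BFU-E cells and 108 CPM in FACS CFU-E. Apoe, which encodes the lipid carrier apolipoprotein E, had 826 CPM and a UMI in 99.4% of myeloid-low FACS BFU-E cells, against 10.1 CPM and 25.1% in FACS CFU-E. The other 3 were less evenly spread. Gata2 had a UMI in 53.8% of myeloid-low FACS BFU-E cells, the mucin gene Muc13 in 69.2% and Car1, a carbonic anhydrase gene, in 71.8%, against 2.40%, 1.80% and 43.7% in FACS CFU-E.

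At least 4 of the 6 markers were detected in 140 of the 156 cells (89.7%). The share was 85.3% in PE-low and 74.7% in CS BFUE. It was 45.5% in the FACS BFU-E cells outside the limits and 8.38% in FACS CFU-E. All 6 were found in 43 cells (27.6%), against 0 of 167 FACS CFU-E cells, a count that allows a share of up to 1.80%. With every cell thinned to 15000 UMIs, which left out 5 myeloid-low FACS BFU-E cells and 3 FACS CFU-E cells, the shares with at least 4 markers were 68.9% and 1.22%. They were 68.0% in PE-low, 58.8% in CS BFUE and 32.4% in the FACS BFU-E cells outside the limits. Thinning left out 3, 2 and 3 cells of these groups.

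**Figure D1:**
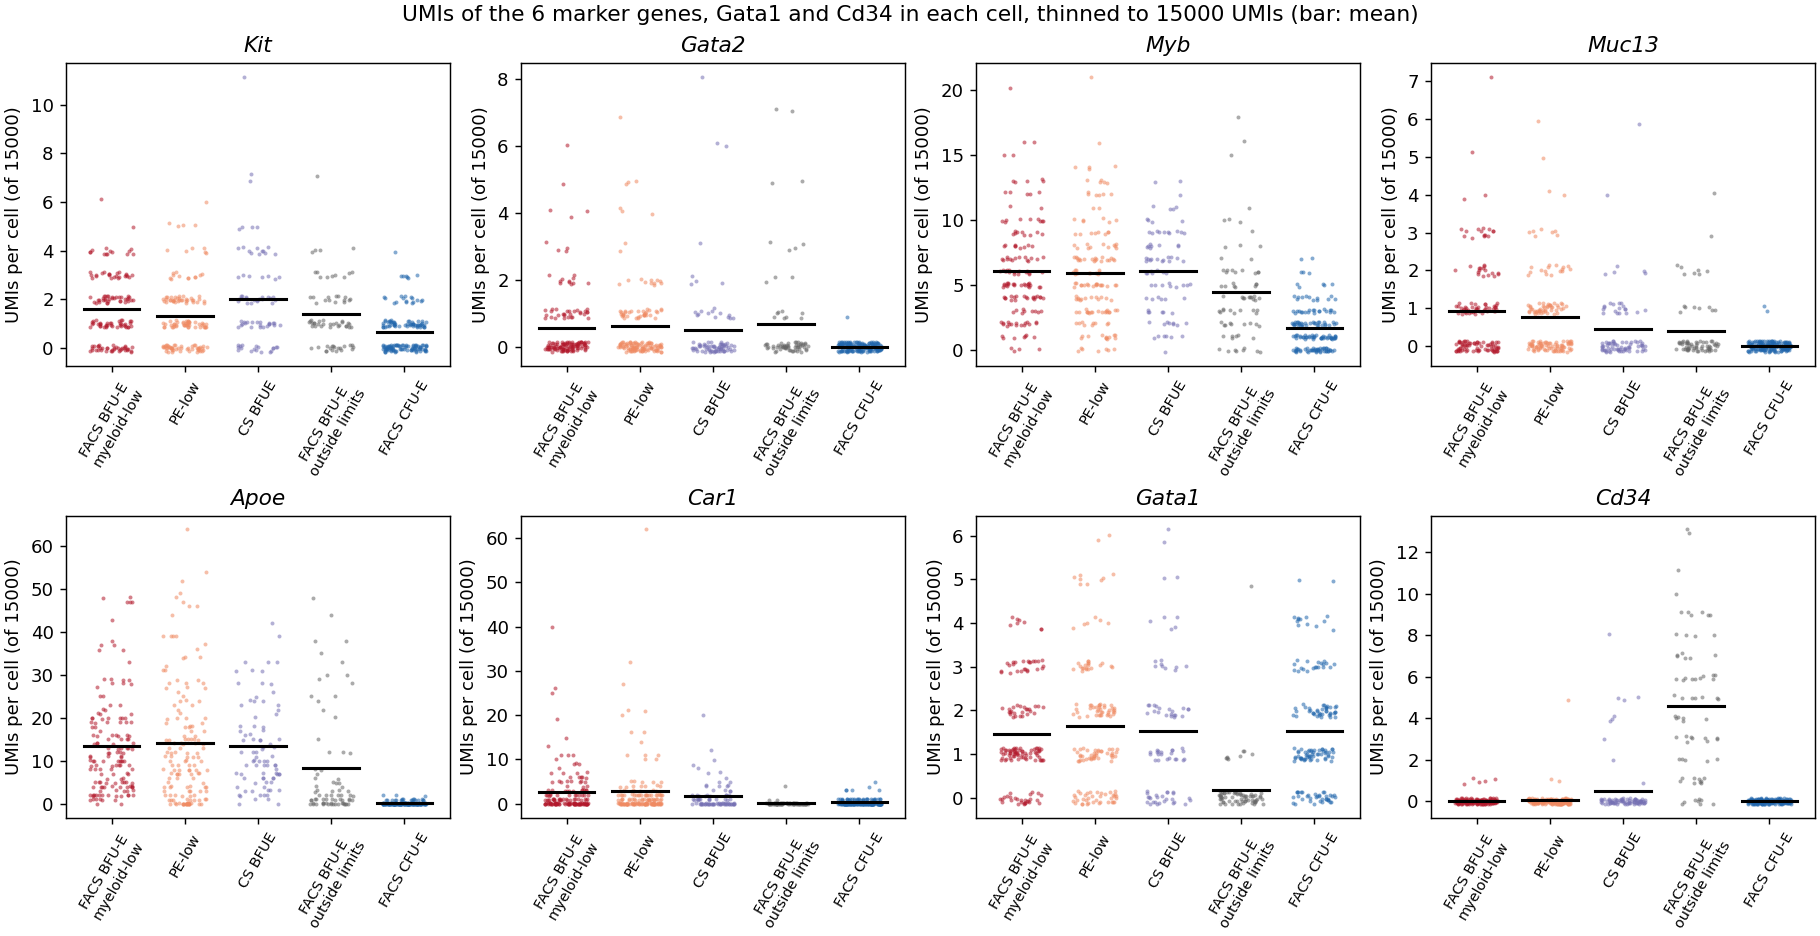
UMIs per cell of Kit, Gata2, Myb, Muc13, Apoe, Car1, Gata1 and Cd34 in 5 groups, each cell thinned to 15000 UMIs; points are cells, moved slightly at random so that they do not overlap, and bars are means. Gata2, Muc13 and Apoe are near 0 in FACS CFU-E, Gata1 is near 0 in most FACS BFU-E cells outside the limits, and Cd34 has its highest mean in those cells.

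The part of the pool outside the limits differed in summed levels, although 45.5% of its cells held at least 4 of the 6 markers. These differences follow from how the cells were chosen and are given as a description. Of 3520 genes compared, 343 were at least 1.5-fold higher in the myeloid-low cells (9.74%) and 391 at least 1.5-fold lower (11.1%), while 79.1% lay within that size. Gata1 had 98.2 CPM in myeloid-low cells, against 12.3 CPM in the cells outside the limits, and Klf1 had 272 against 20.5 CPM. Tspo2, a membrane protein gene of erythroid cells, had 69.2 against 0.909 CPM, Car1 185 against 4.09, Rhd, an Rh blood group gene, 57.6 against 2.27, and the biliverdin reductase gene Blvrb 694 against 27.7. Slc38a5, Gm15915, Ermap, Lmna, Samd14 and Cited4 were the other 6 of the 10 genes with the highest ratios, at 23.0-fold to 58.3-fold.

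Genes of myeloid and multipotent cells were lower in the myeloid-low cells. Ctsg and Elane, which encode granule proteases of neutrophils, had 0.580 and 0.193 CPM in myeloid-low cells, against 464 and 103 CPM outside the limits. Irf8, a factor of monocytes and dendritic cells, had 0.773 against 217 CPM. Cd34, an antigen of stem and progenitor cells, had 2.71 against 303 CPM, and the adhesion gene Emb had 0.580 against 452 CPM. BC035044, Lsp1, Ifi203, Ighm and Milr1 also stood among the 10 lowest ratios. Of 15 CFU-E stage genes compared, 14 were higher in the myeloid-low cells and 0 lower (median log2 ratio 3.77, against 0.07 over all genes). Only 1 of the 15 reached 50 CPM and a UMI in 10% of cells in both groups. A gene that fell short in a group had to be higher in the other to be compared. Of 16 early erythroid progenitor genes compared, 3 were higher and 8 lower (median log2 ratio -0.68). Of the 6 that met these minimums in both groups, 1 was higher and 1 lower (median log2 ratio 0.12). The whole list summed to 2378 CPM in the myeloid-low cells against 4383 CPM outside the limits.

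Some myeloid transcripts were still counted in the myeloid-low cells. FACS CFU-E cells are set beside them, and how much of the counts in either group is free RNA was not tested. Prtn3, a granule protease gene that the limits did not use, had 21.1 CPM in myeloid-low FACS BFU-E cells, against 2.57 CPM in FACS CFU-E, with a UMI in 44.2% against 9.58% of cells. It had 16.4 CPM in PE-low and 1529 CPM in the FACS BFU-E cells outside the limits. Spi1, which encodes the myeloid factor PU.1, had 10.1 CPM in myeloid-low FACS BFU-E cells and 3.21 CPM in FACS CFU-E. Of 15 granulocyte progenitor genes in the table, 9 were at 0 UMIs in the myeloid-low FACS BFU-E cells. Mpo, which the limits hold down by design, had a UMI in 17.3% of myeloid-low FACS BFU-E cells and 10.8% of FACS CFU-E cells. The granulocyte list summed to 30.2 CPM in myeloid-low FACS BFU-E cells, against 24.9 CPM in PE-low, 56.0 CPM in CS BFUE and 7.06 CPM in FACS CFU-E.

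Other cell types left little RNA. The monocyte and macrophage list summed to 18.6 CPM in myeloid-low FACS BFU-E cells against 5.13 CPM in FACS CFU-E, with 6 of 18 genes at 0. Lymphoid genes summed to 20.9 CPM in myeloid-low FACS BFU-E cells and 22.8 CPM in FACS CFU-E, but 1 cell held 115 thinned UMIs of them in FACS CFU-E, where 98.8% of cells had 0, against at most 4 per cell and 74.8% of cells at 0 in myeloid-low FACS BFU-E cells. Hepatocyte genes summed to 3.09 CPM in myeloid-low FACS BFU-E cells and 3.05 CPM in FACS CFU-E, endothelial genes to 8.31 and 0.161 CPM, and both eosinophil genes in the table were at 0. The megakaryocyte list summed to 339 CPM in myeloid-low FACS BFU-E cells, against 382 CPM in PE-low and 129 CPM in FACS CFU-E. Pf4, a defining platelet gene, had 3 UMIs in 2 myeloid-low FACS BFU-E cells, and 3 of 18 megakaryocyte genes were at 0. The part of these cells in the results below was not tested, except where values without 7 cells with megakaryocyte transcripts are given.

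The FACS CFU-E pool is, by its label, the later progenitor. Of 3422 genes compared, 234 were at least 1.5-fold higher in myeloid-low FACS BFU-E cells (6.84%) and 244 were at least 1.5-fold lower (7.13%), while 86.0% lay within that size. A gene entered with 50 CPM and a UMI in 10% of cells in either group, so one that fell short in a group had to be higher in the other to be compared. Of the 2859 genes that met these minimums in both groups, 88 were higher and 120 lower. List counts below are therefore also given over such genes. The lists were chosen with earlier results of these data known, so their counts are a description and not a test. The highest ratio was that of Vim, which encodes the intermediate filament vimentin: 424 CPM in myeloid-low FACS BFU-E cells against 1.93 CPM in FACS CFU-E (220-fold, 126 to 427). Ramp1, a co-receptor gene for calcitonin-family peptides, had 88.1 against 0.642 CPM, and Muc13 62.6 against 0.481 CPM (130-fold, 44.1 to 634). The UMIs of Ramp1 and Muc13 in FACS CFU-E were 4 and 3, which is why their intervals are wide. Apoe was 81.7-fold higher (63.7 to 107) and Klk8, a serine protease gene, 75.9-fold (32.2 to 235). Gmfg, Laptm5, Rasgrp2, Lrrfip1 and Celf2, genes found across blood progenitors, followed at 24.9-fold to 53.3-fold.

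**Figure D2:**
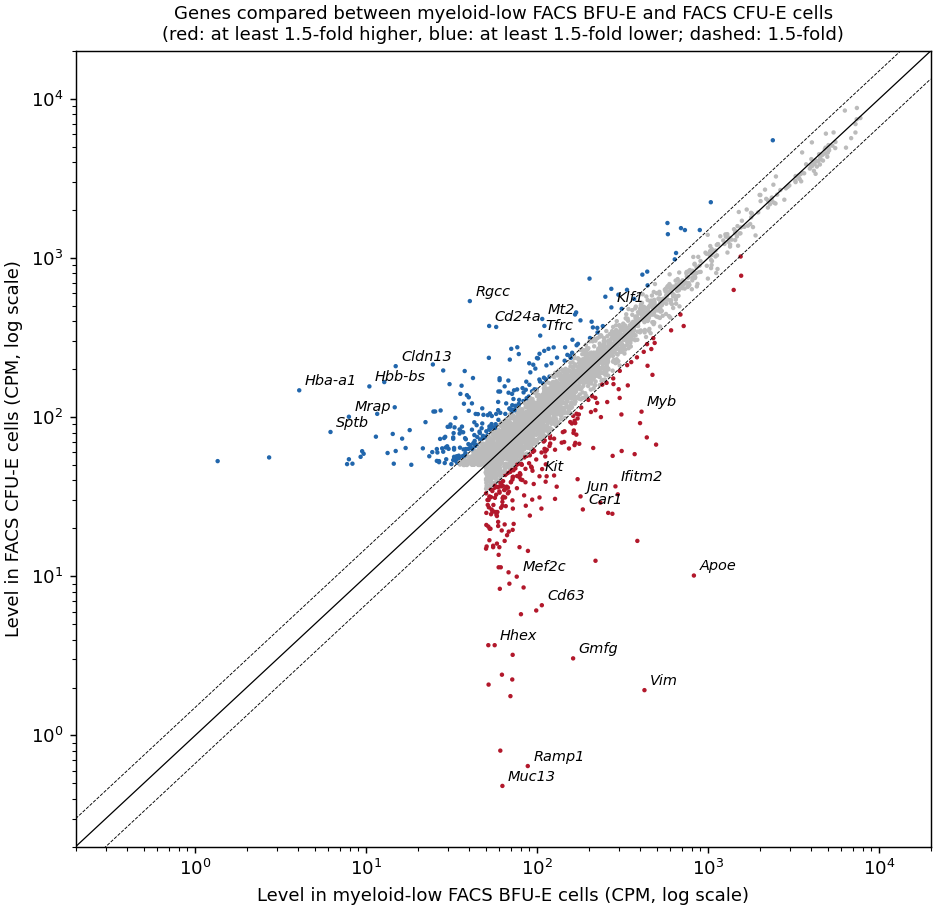
Each point is 1 of 3422 genes, with its level in myeloid-low FACS BFU-E cells on the x axis and in FACS CFU-E cells on the y axis (CPM, log scales); red and blue points are at least 1.5-fold higher and lower in the myeloid-low FACS BFU-E cells. Vim, Ramp1, Muc13 and Apoe lie farthest to the lower right, and Hba-a1, Hbb-bs and Cldn13 to the upper left.

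Of the early erythroid progenitor list, 8 genes were compared and 8 were higher in myeloid-low FACS BFU-E cells; 4 of them met the minimums in both groups (median log2 ratio 1.14, against -0.02 over all such genes). Besides markers, the 8 were Cdk6, which encodes a kinase of the G1 phase, at 236 CPM against 100.1 CPM in FACS CFU-E, the RNA-binding protein gene Zfp36l2, at 257 against 125 CPM, and the adhesion receptor gene Adgrg1, at 139 against 69.2 CPM. Zfp36l2 is known for its part in BFU-E self-renewal in mouse. Nr3c1, the glucocorticoid receptor gene, had 80.2 CPM in myeloid-low FACS BFU-E cells and 50.7 CPM in FACS CFU-E (1.58-fold, 1.36 to 1.84). The glucocorticoid and BFU-E self-renewal list went both ways, with a median log2 ratio of 0.12. Of its 7 genes compared, all meeting the minimums in both groups, Zfp36l2 and Nr3c1 were the 2 higher. The 2 lower were the metallothionein genes Mt1 and Mt2, at log2 ratios of -0.62 and -1.95.

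Of 24 CFU-E stage genes, chosen with earlier results of these data known, 21 were at least 1.5-fold lower in myeloid-low FACS BFU-E cells and 0 higher. Of the 15 that met the minimums in both groups, 13 were lower (median log2 ratio -1.28). Cldn13, a claudin gene, had 14.9 CPM in myeloid-low FACS BFU-E cells against 209 CPM in FACS CFU-E, the cell cycle regulator gene Rgcc 40.4 against 537 CPM, and Mrap, a receptor accessory protein gene, 7.92 against 101 CPM. Hemgn, an erythroid nuclear protein gene, had a log2 ratio of -3.13. These 4 genes were under 50 CPM in the myeloid-low FACS BFU-E cells, so they could enter only as lower. Klf1, the factor that drives erythroid genes, stood at 272 CPM in myeloid-low FACS BFU-E cells and 490 CPM in FACS CFU-E, and the erythropoietin receptor gene Epor at 91.2 and 191 CPM. Gata1 was at 98.2 CPM in myeloid-low FACS BFU-E cells, against 105 CPM in FACS CFU-E, a difference within 1.5-fold.

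Of 8 erythroblast genes compared, 6 were lower, and 0 of these 6 met the minimums in both groups. Among them was Sptb, the red cell beta spectrin gene, at 6.19 CPM in myeloid-low FACS BFU-E cells against 80.7 CPM in FACS CFU-E. All 4 globin genes compared entered through FACS CFU-E alone and could only be lower, so their values are a description: Hba-a1 had 4.06 CPM in myeloid-low FACS BFU-E cells and 148 CPM in FACS CFU-E, Hba-a2 1.35 and 53.0 CPM, Hbb-bs 10.4 and 156 CPM, and Hbb-bt 12.8 and 166 CPM. Within each of these pairs the copies are near-identical, so how reads were split between them is uncertain. C2cd4a and Arhgdig were the remaining 2 of the 10 lowest ratios, at 20.6-fold and 9.05-fold lower.

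Of 10 heme genes compared, 10 were at least 1.5-fold lower in myeloid-low FACS BFU-E cells, among them all 6 that met the minimums in both groups (median log2 ratio of the 6, -0.96). Their log2 ratios were -0.98 for Alad and -2.16 for Uros, which help build the ring system, -0.74, -0.93 and -1.18 for Urod, Cpox and Ppox, which modify it, and -1.50 for Fech, which inserts iron. Of 10 iron genes 5 were lower, 4 of them among the 9 that met the minimums in both groups, with Tfrc at 104 CPM in myeloid-low FACS BFU-E cells against 326 CPM in FACS CFU-E, the ferritin genes Fth1 and Ftl1 at log2 ratios of -1.20 and -1.04, and the mitochondrial iron importer gene Slc25a37 at -1.43. Tfrc and Cd24a (52.4 against 374 CPM) encode antigens used in the isolation, so their difference cannot be told apart from the gates, which are not given.

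Transcription factor genes went both ways: of 19 compared, 7 were higher and 4 lower in the myeloid-low FACS BFU-E cells, and of the 14 that met the minimums in both groups, 3 were higher and 3 lower. Hhex, a homeobox factor of early blood progenitors, had 56.4 CPM in them against 3.69 CPM in FACS CFU-E, and Mef2c, a MADS-box factor, 76.0 against 9.95 CPM. Myb, the co-repressor gene Cbfa2t3 (167 against 69.0 CPM), Myc (163 against 79.6 CPM), Runx1 and Nfe2 were the other 5. Klf3, Klf1, Zbtb7a and Gfi1b were lower, at log2 ratios of -1.01, -0.85, -0.73 and -0.60. Of 5 receptor and signalling genes, Ptpn6, which encodes the phosphatase SHP-1 (64.6 against 16.7 CPM), Kit and Stat5a were higher and Epor was lower; the 3 higher ones were all under 50 CPM in FACS CFU-E.

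Glycolysis genes were past 1.5-fold in 5 of 11 cases, beside 6.84% of all genes higher and 7.13% lower. Of the 10 that met the minimums in both groups, 4 were higher and 0 lower. Of the 11 glycolysis genes, Pkm (339 against 158 CPM), Pgk1, Gpi1 and Ldha were higher in myeloid-low FACS BFU-E cells, and Pklr, the pyruvate kinase gene of red cells and liver, was lower (39.8 against 133 CPM). Pklr entered through FACS CFU-E alone and could only be lower. Of 19 MYC-linked growth genes, which all met the minimums in both groups, 3 were higher, led by the nucleotide kinase gene Nme2 at 1411 CPM against 630.4 CPM. The histone variant gene H2afy, which encodes macroH2A1, had 400 CPM in myeloid-low FACS BFU-E cells and 91.8 CPM in FACS CFU-E, and Cd63, a tetraspanin gene, had 107 and 6.58 CPM. Asns, the asparagine synthetase gene, was lower at 169 against 455 CPM. Of 41 S phase genes, 4 were lower and 0 higher, with Ccne1, the cyclin E1 gene, at 101 against 234 CPM. All 4 were among the 39 that met the minimums in both groups. Of 40 G2/M genes, 3 were lower, 2 of them among the 38 that met the minimums in both groups. The rest of both cell cycle lists lay within 1.5-fold.

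**Figure D3:**
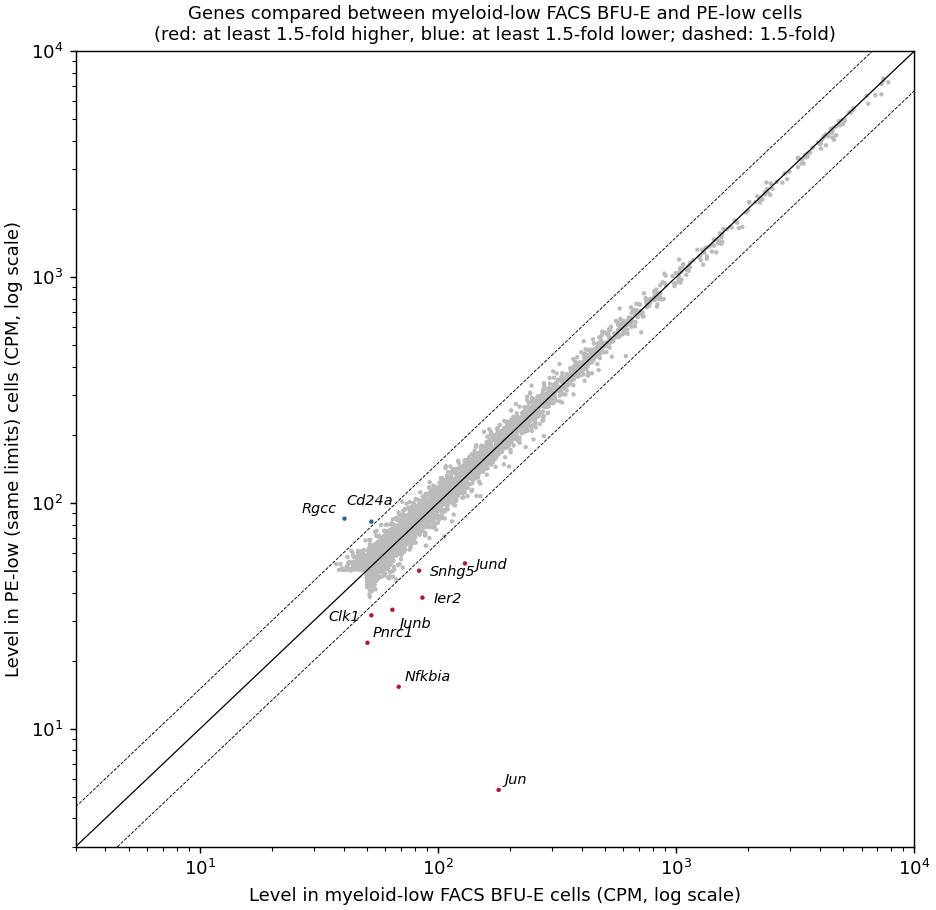
Each point is 1 of 3260 genes, with its level in myeloid-low FACS BFU-E cells on the x axis and in PE-low cells under the same limits on the y axis (CPM, log scales); dashed lines mark 1.5-fold. Nearly all points lie between the dashed lines, 8 genes led by Jun lie to the lower right, and Rgcc and Cd24a lie to the upper left.

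PE-low cells under the same limits were close to the myeloid-low FACS BFU-E cells. Of 3260 genes compared, 8 were at least 1.5-fold higher in myeloid-low FACS BFU-E cells (0.245%) and 2 were lower (0.0613%), which makes 0.307% either way, and 99.7% lay within that size. Of the 3036 genes that met the minimums in both groups, 1 was higher and 1 lower. Apoe had 826 CPM in myeloid-low FACS BFU-E cells against 880 CPM in PE-low, Myb 408 against 395, Car1 185 against 181, Vim 424 against 428, Klf1 272 against 278, Kit 103 against 87.6 and Muc13 62.6 against 47.2. Of the early erythroid, heme, iron, transcription factor, S phase and G2/M lists, 0 members compared were past 1.5-fold in either direction. Of 16 CFU-E stage genes 2 were lower. Rgcc had 40.4 CPM in myeloid-low FACS BFU-E cells against 85.0 CPM in PE-low, and Cd24a 52.4 against 82.5 CPM. Rgcc entered through PE-low alone and could only be lower. Being within 1.5-fold in single pools does not show that the pools hold the same cells.

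Immediate early genes, which many cells switch on within minutes of a stimulus, led the higher side. Isolation and group cannot be told apart here. Jun had 179 CPM in myeloid-low FACS BFU-E cells and 5.35 CPM in PE-low (33.5-fold, 23.2 to 50.4). It had a UMI in 73.1% of myeloid-low FACS BFU-E cells, 41.9% of FACS CFU-E cells and 15.4% of PE-low cells. Nfkbia, which encodes an inhibitor of NF-kappa-B, was 4.46-fold higher (3.50 to 5.73), Jund 2.40-fold (2.09 to 2.77), Ier2 2.26-fold (1.91 to 2.68) and Junb 1.91-fold (1.59 to 2.30). All 5 members of the immediate early and dissociation list that could be compared were higher, and 4 of the 5 were under 50 CPM in PE-low. The other 3 genes past 1.5-fold were Pnrc1 (2.10-fold), the small nucleolar RNA host gene Snhg5 (1.66-fold) and the splicing kinase gene Clk1 (1.65-fold). These 3 were also under 50 CPM in PE-low, so they could enter only as higher.

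The whole immediate early list, which needs no level filter, summed to 732 CPM in myeloid-low FACS BFU-E cells, against 199 CPM in PE-low, 230 CPM in CS BFUE and 294 CPM in FACS CFU-E. The FACS BFU-E cells outside the limits had more, at 1682 CPM. Per thinned cell the list had 0 to 121 UMIs (median 7) in myeloid-low FACS BFU-E cells, 0 to 14 (median 3) in PE-low and 0 to 18 (median 3) in FACS CFU-E. The ranges overlap and the high end belongs to FACS BFU-E. Fos, chosen after its values were seen, had 17.8 CPM in myeloid-low FACS BFU-E cells and 0.185 CPM in PE-low, with a UMI in 18.6% against 0.641% of cells. Of heat shock genes chosen in the same way, Hspa1a had 42.9 and 2.95 CPM, against 15.6 CPM in FACS CFU-E.

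Against CS BFUE cells, the library and the group cannot be told apart. Of 3227 genes, 450 were at least 1.5-fold higher in myeloid-low FACS BFU-E cells (13.9%) and 159 lower (4.93%), with 81.1% within that size. The median of all genes was itself shifted by 0.27 on the log2 scale, and scaling by the median of ratios turned the counts to 76 higher and 304 lower. Among the 10 lowest ratios were genes of ribosomal proteins, with log2 ratios of -2.71 for Rps27, -2.13 for Rps29, -2.03 for Rps28 and -1.94 for Rps21, and with Rpl38, Rpl41 and Rps26 at -1.80 to -1.91. Jun was 8.94-fold higher (6.58 to 12.4) and Nfkbia 5.41-fold (3.66 to 8.33). The markers Apoe and Myb had log2 ratios of -0.03 and 0.02 and took a lower value under that other scaling, at -0.30 and -0.25. They are 2 of the 6 markers and do not stand for the rest. Of 9 early erythroid progenitor genes compared, 2 were at least 1.5-fold higher in myeloid-low FACS BFU-E cells and 1 lower. The median log2 ratio of the 9 was 0.18, against 0.27 over all genes.

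Variation among the myeloid-low FACS BFU-E cells was measured on 151 cells thinned to 15000 UMIs each, as the squared coefficient of variation in excess of counting error; 0 means no more spread than counting gives, and 1 a spread as large as the mean. Of 3143 genes at 50 CPM or more, 264 had an excess of at least 0.25 (8.4%), while the median over all genes was 0.04. Which genes pass this size depends on the settings: 147 of the 264 also passed without thinning, 163 at 10000 UMIs and 146 in cells with 0 UMIs of the 4 myeloid genes. Of the 20 most variable genes, 16, 14 and 11 stayed among the 20 under these settings, 9 among genes of 100 CPM or more, and 3 when the whole pool was used. The immediate early genes led: Ier2 had an excess of 3.72, Jun 3.06 and Nfkbia 1.68. The 16 cells with the most Jun held 53.3% of the thinned UMIs of Jun, its 10th percentile cell had 0 UMIs, its median cell 1 and its highest cell 44. All 5 genes of this list that were tested were variable.

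**Figure D4:**
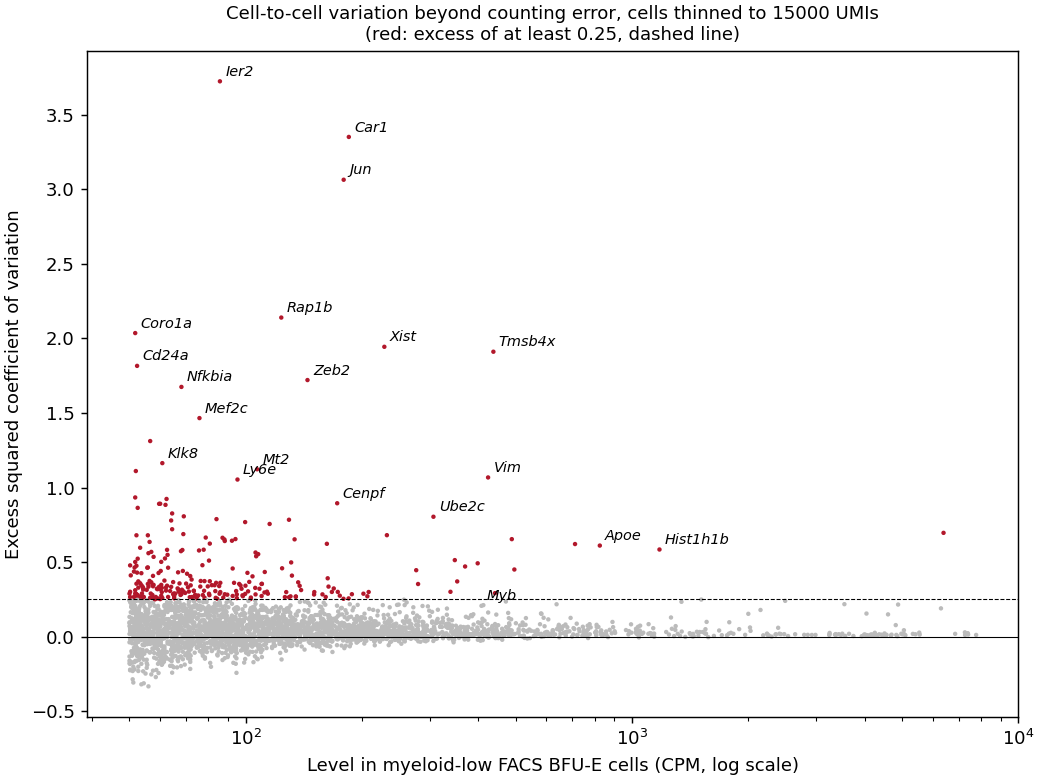
Level (CPM, log scale) on the x axis and excess squared coefficient of variation on the y axis for 3143 genes in 151 myeloid-low FACS BFU-E cells thinned to 15000 UMIs; red points lie at or over 0.25. Ier2, Car1 and Jun stand over 3, and most genes lie close to 0, with more scatter at low level.

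Of the markers given for the cells and at 50 CPM or more, Car1 varied most. Its excess was 3.35, its median cell had 1 UMI, its 90th percentile cell 7 and its highest cell 40, and the 16 cells with the most held 56.1% of its UMIs. The cytoskeletal genes Coro1a (2.04), Tmsb4x (1.91) and Vim (1.07), the factor genes Zeb2 (1.72) and Mef2c (1.47), the linker histone gene H1f0 (1.31), Klk8 (1.16), Celf2 (1.11) and Ly6e (1.05) were also among the 20 most variable. So were Cd24a (1.82) and the metallothionein gene Mt2 (1.12) of the CFU-E stage list, the mitotic gene Cenpf (0.90), Dancr (0.93), Esco2 (0.92) and Rap1b (2.14). Without 7 cells that held at least 3 UMIs of Plek, a gene of platelets and leukocytes, Rap1b fell to -0.16, Dancr to 0.06 and Esco2 to 0.21, Mef2c to 0.71 and Cd24a to 1.05, and Coro1a and Celf2 dropped under the level minimum; the choice was made after seeing the data. Xist (1.94) is an RNA of female cells. Among the myeloid-low FACS BFU-E cells, 58 held Xist and no transcript of 4 Y-linked genes, 89 the reverse, 5 both and 4 neither.

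The counts of variable genes by list stand beside 8.4% over all genes and are sensitive to the size chosen where a list's median is close to it. Of 39 G2/M genes 20 were variable (median excess 0.26), and of 40 S phase genes 11 (0.13). Of 12 histone genes 8 were variable (0.39) and of 15 CFU-E stage genes 8 (0.25). The counts were 0 of 6 heme genes (0.08), 2 of 19 MYC-linked growth genes (0.05) and 1 of 10 glycolysis genes (0.06). Over the 151 thinned cells the summed S phase and G2/M UMIs had a Pearson r of -0.55 (Spearman rho -0.56). Early erythroid and CFU-E stage UMIs had an r of -0.60 (rho -0.64), CFU-E stage and heme UMIs 0.53 (rho 0.48), and early erythroid and stem cell UMIs 0.54 (rho 0.51), these last 2 lists sharing 1 gene, Cd34. CFU-E stage UMIs had an r of -0.01 with S phase and 0.00 with G2/M. All cells share a library and a fixed total of UMIs, and these values describe these cells only.

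To describe this range, the 156 cells were ranked by the share of their UMIs in the 24 CFU-E stage genes and cut into a bottom, a middle and a top group of 52 cells each. The groups are cuts of a continuous range and not cell types: the median share was 0.175% in the bottom, 0.298% in the middle and 0.402% in the top group, with 0.253% and 0.256% on the 2 sides of the lower cut. Depth moved with the rank, at median UMIs per cell of 27522.5, 35904.5 and 36637.5. Of 3429 genes outside the ranking list, 158 were at least 1.5-fold higher in the top than in the bottom group (4.61%) and 256 were lower (7.47%). Ranked by the share after thinning to 15000 UMIs, the counts were 92 higher and 206 lower, and with scaling by the trimmed mean of M values 241 higher and 209 lower, so the split between higher and lower depends on the ranking and the scaling. Of the 2850 genes that met the minimums in both groups, 89 were higher and 89 lower. With the ranking list included, the counts over 3449 genes were 175 (5.07%) and 256 (7.42%).

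Of 12 early erythroid progenitor genes, 10 were lower in the top group. Of the 7 that met the minimums in both groups, 5 were lower (median log2 ratio -0.83, against 0.05 over all such genes), while Gata2, Muc13, Ctla2a, Ifitm1 and Igfbp4 entered through the bottom group alone. Apoe had 1415 CPM in the bottom group, 820 in the middle and 374 in the top, and Vim 802, 421 and 135 CPM. Gata2 had 106, 25.1 and 12.7 CPM and Muc13 102, 66.1 and 28.7 CPM. Kit, by contrast, had 106, 109 and 95.5 CPM, so the receptor's gene lay within 1.5-fold across the whole range. Myb had 476, 423 and 341 CPM. Car1 had 227, 210 and 128 CPM, a smaller difference than its spread between single cells.

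**Figure D5:**
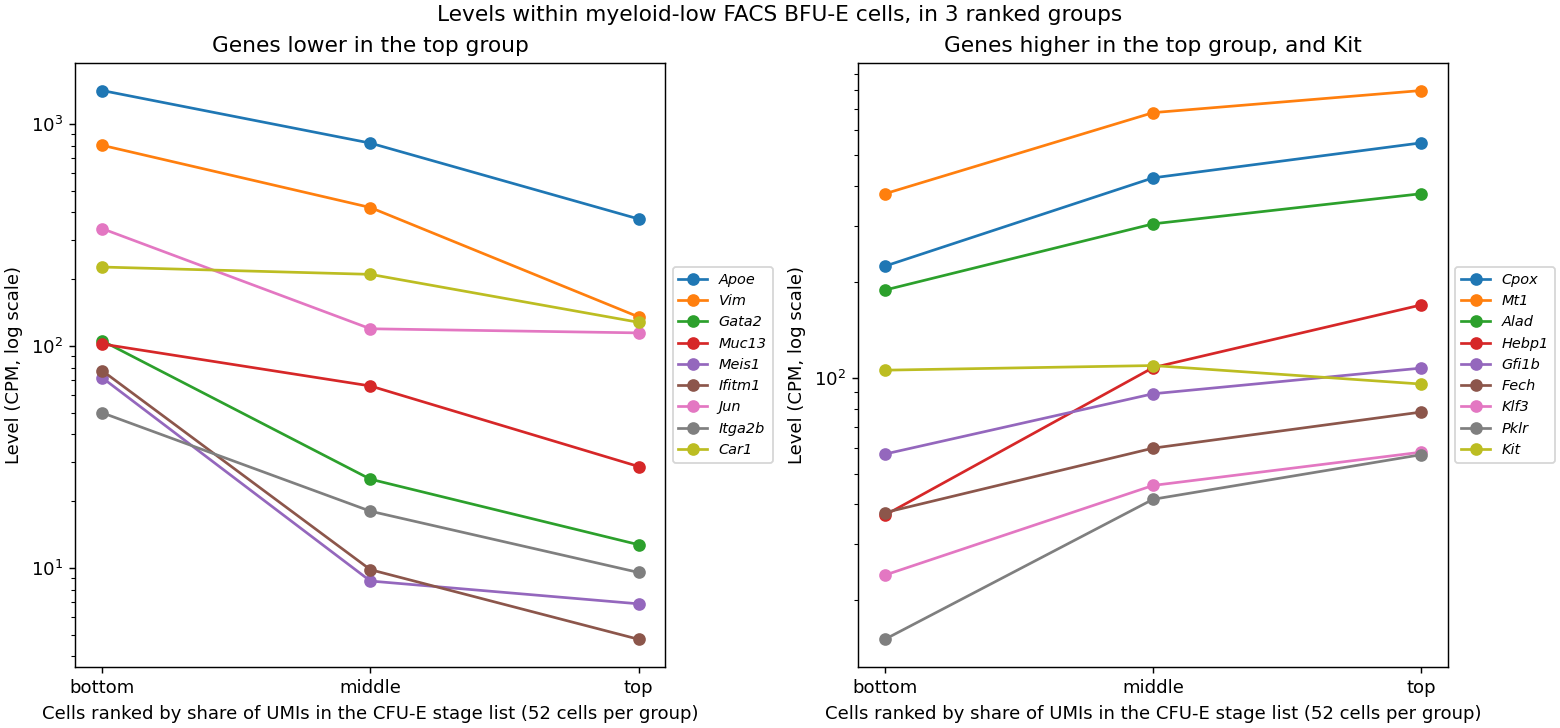
Levels (CPM, log scale) of genes outside the ranking list in the bottom, middle and top groups of 52 myeloid-low FACS BFU-E cells, ranked by their share of UMIs in CFU-E stage genes; points are sums over the cells of a group. Apoe, Vim, Gata2 and Muc13 step down at both cuts, Meis1 and Ifitm1 mostly at the first, Hebp1, Cpox and Alad step up, and Kit is nearly level.

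Of 4 stem and multipotent genes compared, 3 were lower in the top group, all 3 under 50 CPM there. The genes named next were among the 10 lowest ratios. They were under 50 CPM in the top group, so they could enter only as lower. Meis1, a homeobox factor, had 6.90 CPM in the top group against 72.0 CPM in the bottom group, with 8.74 CPM in the middle. Ifitm1, of the interferon-induced transmembrane family, had 4.78 against 77.4 CPM, and Ctla2a, a protease inhibitor gene, 5.31 against 62.4 CPM. The linker histone gene H1fx, Igfbp4, Coro1a and Limd2 had log2 ratios of -3.10, -2.76, -2.72 and -2.57. The 7 cells with Plek UMIs held 38.1% of Meis1 and 13.8% of Gata2 UMIs, against 3.65% of all UMIs. Without them the log2 ratios were -2.57 for Meis1 (against -3.38 with them) and -2.93 for Gata2 (against -3.05), and 104 genes were higher.

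Marker lists of other cells moved with the rank. The megakaryocyte list summed to 609 CPM in the bottom group, 277 in the middle and 192 in the top. Its 4 genes compared, Itga2b (log2 ratio -2.39), Cd9, Rap1b and Nrgn, were lower in the top group; Itga2b and Cd9 entered through the bottom group alone, and the 7 cells with Plek UMIs held 21.3% of the Rap1b UMIs. The stem and multipotent list summed to 513, 322 and 277 CPM, and the mast cell and basophil list, mostly the proteoglycan gene Srgn, to 492, 232 and 171 CPM. Granulocyte genes summed to 50.7, 19.1 and 24.9 CPM and monocyte genes to 41.8, 12.6 and 6.37 CPM. The part of such cells in the difference between the groups was not tested beyond the 7 cells left out above.

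Among genes higher in the top group, Hebp1, a heme-binding protein gene, had 169 CPM in the top group and 37.0 CPM in the bottom group (4.57-fold, 3.42 to 6.22). Prss50 (3.90-fold), Pklr (3.80-fold), Rfesd (3.13-fold), Emc9, Prelid2, Pla2g12a, Klf3 and Ammecr1 were also among the 10 highest ratios. Hebp1, Prss50, Pklr, Rfesd, Emc9, Klf3 and Ammecr1 were under 50 CPM in the bottom group, so they could enter only as higher. Of 6 heme genes, 5 were higher in the top group, 4 of them among the 5 that met the minimums in both groups. The 5 higher genes included Cpox (547 against 224 CPM), Alad (378 against 188.5 CPM), Fech (78.0 against 37.7 CPM) and Urod. Fech entered through the top group alone. Gfi1b, which encodes a transcriptional repressor found in cells of the erythroid and platelet lineages, had 107 against 57.6 CPM. The metallothionein gene Mt1 had 798 against 378 CPM. Ccne1 had 129 CPM in the top group and 63.7 CPM in the bottom group, although the S phase list as a whole summed to 6437 CPM in the top group and 6762 CPM in the bottom group. Globin genes summed to 26.5 CPM in the top group and 34.3 CPM in the bottom group.

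Immediate early genes also followed the rank. Jun had 338 CPM in the bottom, 120 in the middle and 115 in the top group, and Ier2 133, 84.1 and 50.9 CPM. Of 5 list members compared, 4 were lower in the top group, 3 of them among the 4 that met the minimums in both groups. Cdk6 and Cdkn2d, which encode a G1 kinase and an inhibitor of it, were lower together, with Cdk6 at 183 CPM in the top group against 311 CPM in the bottom group and Cdkn2d at 12.7 against 50.7 CPM. Cdkn2d entered through the bottom group alone and could only be lower.

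The promoter windows of these genes were searched for the GATA motifs AGATAA and TGATAA on both strands, in RefSeq windows of build GRCm38.p6 from 250 bases before to 50 after each start. Of 12735 genes of the count table with a window, 13.95% held a match; over all 27025 genes with a RefSeq window the share was 20.96%. Of early erythroid progenitor genes 2 of 13 did (15.4%), of CFU-E stage genes 8 of 19 (42.1%), of heme genes 3 of 11 (27.3%) and of erythroblast genes 6 of 9 (66.7%). A match describes letters in a window and is not a bound site. The windows of Muc13 (1 of its 2 listed starts), of Klf1 and of Cpox are shown because Muc13 was lower and Cpox higher in the top group and Klf1 is of the ranking list. They lie at chr16:33794239-33794538, chr8:84901732-84902031 and chr16:58669958-58670257, all on the plus strand, and capitals mark the matches. Kit, Gata2, Myb, Apoe, Vim and Hebp1 had 0 matches, as did Gata1 and Blvrb of the ranking list. Epor and Rhd, also of that list, had 1 match each.
Muc13: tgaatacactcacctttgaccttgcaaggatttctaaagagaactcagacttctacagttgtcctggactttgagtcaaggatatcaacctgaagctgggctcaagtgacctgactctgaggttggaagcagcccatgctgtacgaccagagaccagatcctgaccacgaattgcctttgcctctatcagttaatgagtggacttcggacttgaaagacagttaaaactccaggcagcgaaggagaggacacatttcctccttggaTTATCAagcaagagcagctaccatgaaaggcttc
Klf1: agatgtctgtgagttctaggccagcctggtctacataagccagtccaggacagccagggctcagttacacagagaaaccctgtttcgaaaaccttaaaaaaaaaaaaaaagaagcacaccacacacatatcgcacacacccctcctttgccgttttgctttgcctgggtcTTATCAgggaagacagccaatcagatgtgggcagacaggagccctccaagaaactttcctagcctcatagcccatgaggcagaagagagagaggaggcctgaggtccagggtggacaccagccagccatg
Cpox: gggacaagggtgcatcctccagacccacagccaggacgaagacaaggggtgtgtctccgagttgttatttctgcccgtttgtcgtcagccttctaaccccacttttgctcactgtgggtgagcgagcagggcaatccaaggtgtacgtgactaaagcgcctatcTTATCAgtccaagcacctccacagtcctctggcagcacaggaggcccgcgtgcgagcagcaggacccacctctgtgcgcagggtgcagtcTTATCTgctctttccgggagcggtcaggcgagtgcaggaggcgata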

How the data were processed

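The table holds cells against genes in natural log units: per the values, the authors deposited ln(x + 1) of each cell's UMIs scaled to 10000. A second table names each cell's pool. The tools that the submitters' processing notes list are Scanpy and Cell Ranger 4.0.0, with mm10 as build; filters on cells are not stated. Linear values divided by the smallest nonzero one of the cell gave UMIs, all whole within 0.02. No doublet caller was run. UMIs were summed per group and scaled to CPM with Python 3.11.15, NumPy 2.4.6, SciPy 1.17.1 and pandas 2.3.3. Shares of cells have Clopper-Pearson and levels Poisson intervals in the tables behind the text; a count of 0 stands for fewer than 3 counts. A gene entered a comparison at 50 CPM and a UMI in 10% of cells on a side; 1.5-fold is a size and not a test. Functions were tested on simulated data. Named are the 10 highest and lowest ratios per comparison, the 20 most variable genes, up to 4 members a list by size, the markers, and genes of the limits and gates; others, such as Gata1 and Klf1 where they were not among these, were chosen with their values known. The members and the 29 lists were chosen with earlier results of these data known. The alternatives were other scalings, level filters, limits, sizes, depths and cuts. Some genes that this rule would name are not reported here.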

Additional observations from a re-analysis of the deposited data

How the results depend on the processing

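No paired analysis was possible because each group is 1 sample. Of 103 counts recomputed under the alternatives 62 kept within 1.5 times of the reported one and 41 did not; of the values of single genes and lists 1770 stayed, 121 moved and 3 changed sign. The counts that moved are given as higher and lower genes. Against FACS CFU-E they were 568 and 453 with a 20 CPM filter, 2156 and 1072 with no level filter, and 122 and 118 at 2-fold. Against PE-low they were 23 and 23, 523 and 752, and 5 and 1 in the same order, 16 and 10 with no myeloid limits, and 1 lower with cells weighted equally. Against CS BFUE they were 76 and 304 with the median of ratios, 131 and 244 with the trimmed mean of M values, 877 higher with a 20 CPM filter, 2102 and 857 with no level filter, and 34 and 63 at 2-fold. Against the FACS BFU-E cells outside the limits they were 646 and 873 with a 20 CPM filter, 1540 and 2224 with no level filter, 157 and 257 with the limits at 0 UMIs of the 4 myeloid genes, and 124 and 233 at 2-fold. Between top and bottom groups they were 344 and 657 with a 20 CPM filter; the higher count was 92 when cells were ranked after thinning to 15000 UMIs, 245 with 4 groups in place of 3, 241 with the trimmed mean of M values and 104 without the 7 cells with Plek UMIs. Variable genes numbered 149 with each gene's highest cell left out, 76 at 100 CPM and 71 at an excess of 0.5. The excess of Rap1b was -0.0462 with 0 UMIs of the 4 myeloid genes, and -0.162 and -0.0573 without the 7 cells under 2 draws of UMIs. Beyond the smaller number of genes or cells that a filter leaves, the cause was not tested. Thinned limits kept 153 cells and limits at 0 UMIs 127. At these depths a gene under the floor of 3 counts, 0.580 CPM in the myeloid-low cells, cannot be told from 0.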

Other observations

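Some genes of the comparisons above were not named there. Mllt3, a gene linked to stem cell maintenance, was at 41.6 CPM in myeloid-low FACS BFU-E cells against 122 CPM in FACS CFU-E. Ifitm2 had 287 CPM in myeloid-low FACS BFU-E cells and 36.7 CPM in FACS CFU-E, while Ifi30 had 60.3 and 176 CPM, so members of the interferon list went both ways. Mllt3 and Ifitm2 were each under 50 CPM in the group where they were lower, so they could differ only in that direction. Itga2b, an integrin gene of platelets and early progenitors, had 24.0 CPM in myeloid-low FACS BFU-E cells, 25.5 CPM in PE-low and 10.9 CPM in the FACS BFU-E cells outside the limits. Ncoa4, which encodes a receptor for ferritin breakdown, was lower in the top than in the bottom group (35.0 against 70.6 CPM), while the ferritin gene Fth1 was higher (2896 against 1916 CPM). Ncoa4 was under 50 CPM in the top group and could enter only as lower. Of the 5 groups, 0 held a cell with 3 or more UMIs of both Xist and the Y-linked genes.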
